A study of Mus musculus with 8 samples.

Results

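The genes described here build the ribbon synapse of photoreceptors, the output contact through which rods and cones signal to bipolar and horizontal cells. They are 10 genes of the 18193 with a name on the array: Bsn, Pclo, Ctbp2, Cacna1f, Cacna2d4, Rab3c, Slc17a7, Cplx3, Cplx4 and Unc119. Every probe set that the platform annotation gives to 1 of these symbols was taken, which made 21 probe sets, from 1 to 5 per gene, and all 21 were tested. Where 1 value per gene is given it is that of the brightest probe set, the one with the highest mean over all arrays.

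Total RNA of mouse retina was measured on 8 Affymetrix arrays, 1 per sample. All animals were of the strain labelled BALB/c AJ and 40 days old, were kept under a light and dark cycle, and had the retinal pigment epithelium dissected away. The arrays fell into 3 labelled as wild type, 2 as heterozygous and 3 as homozygous for a null allele of Nxnl1, the gene of rod-derived cone viability factor. The labels do not say how the allele was made, nor whether the arrays of 1 genotype stand for separate animals, so p-values cover only the spread among these samples, and that spread may be technical.

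A photoreceptor releases glutamate continuously in darkness and less in light. Its terminal holds a plate-like ribbon that tethers vesicles beside the calcium channels, and the scaffold proteins bassoon and piccolo, the ribbon protein RIBEYE, an L-type calcium channel and complexins of a retinal type are parts of this machine. In mice the loss of bassoon detaches ribbons from the membrane, and mutations of the channel subunits cause forms of night blindness or cone dysfunction in humans. The arrays measured whole retina, in which fewer cells of a type and less RNA per cell cannot be told apart.

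Nxnl1 went against the label on 2 arrays. In log2 units, as for all levels here, the brighter of its probe sets gave 9.22, 8.87 and 8.65 for the labels wild type 1, 2 and 3, then 8.65 and 6.75 for heterozygous 1 and 2, then 6.13, 8.76 and 6.13 for homozygous 1, 2 and 3. Homozygous 2 thus read like wild type and heterozygous 2 read low, so each direction below is between arrays as labelled. For each member, the homozygous difference of the brightest probe set from wild type was also taken without these 2 arrays in doubt. It is given where it moved by over 1.5 times. Other differences are not all given in this way. The actin difference, that is the level at the 5′ end of the actin control minus that at its 3′ end, is lower in degraded RNA. It ran from -1.81 to -0.69 and was lowest on wild type 1 (-1.81) and homozygous 1 (-1.74). As a check of the tissue, the mean of 14 measured photoreceptor markers ran from 12.20 to 12.42 over the arrays and no marker had a mean under 8.71. Markers of other tissue were present as well: the pigment epithelium gene Rpe65 read 9.16 to 10.48, and the lens crystallin Cryaa read 9.34, 7.09 and 5.77 for wild type, 6.12 and 10.44 for the heterozygous pair and 11.72, 5.45 and 10.27 for the homozygous arrays.

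No difference by genotype passed the test for any of the 10 genes. Between the arrays labelled homozygous and wild type the differences of the brightest probe sets ran from -0.13 for Pclo to 0.27 for Slc17a7, and their median was 0.04 against 0.02 over all genes. Limma called 0 of 21 member probe sets after Benjamini-Hochberg adjustment, as it called 0 of 45037 in all (0%), and at an unadjusted p under 0.05 it had 0 of 21 against 411 of 45037 (0.913%). The 3 homozygous arrays lay all above or all below the 3 wild-type arrays for 0 of 21 probe sets, where 2.63% of all probe sets lay above and 1.84% below. The difference was above 0 for 11 of 21, against 52.1% of all probe sets. The 95% intervals of the 10 brightest probe sets reached from -0.44 to 0.76 on the log2 scale. None of these 10 thus held a change by a log2 value of 1 in either direction. That of the dimmest Cacna2d4 probe set, which is not among them, ran from -0.92 to 1.21. These intervals are for the arrays as labelled, with homozygous 2 reading like wild type for Nxnl1. Nxnl1 itself, with a difference of -1.91, was not called either.

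**Figure D1:**
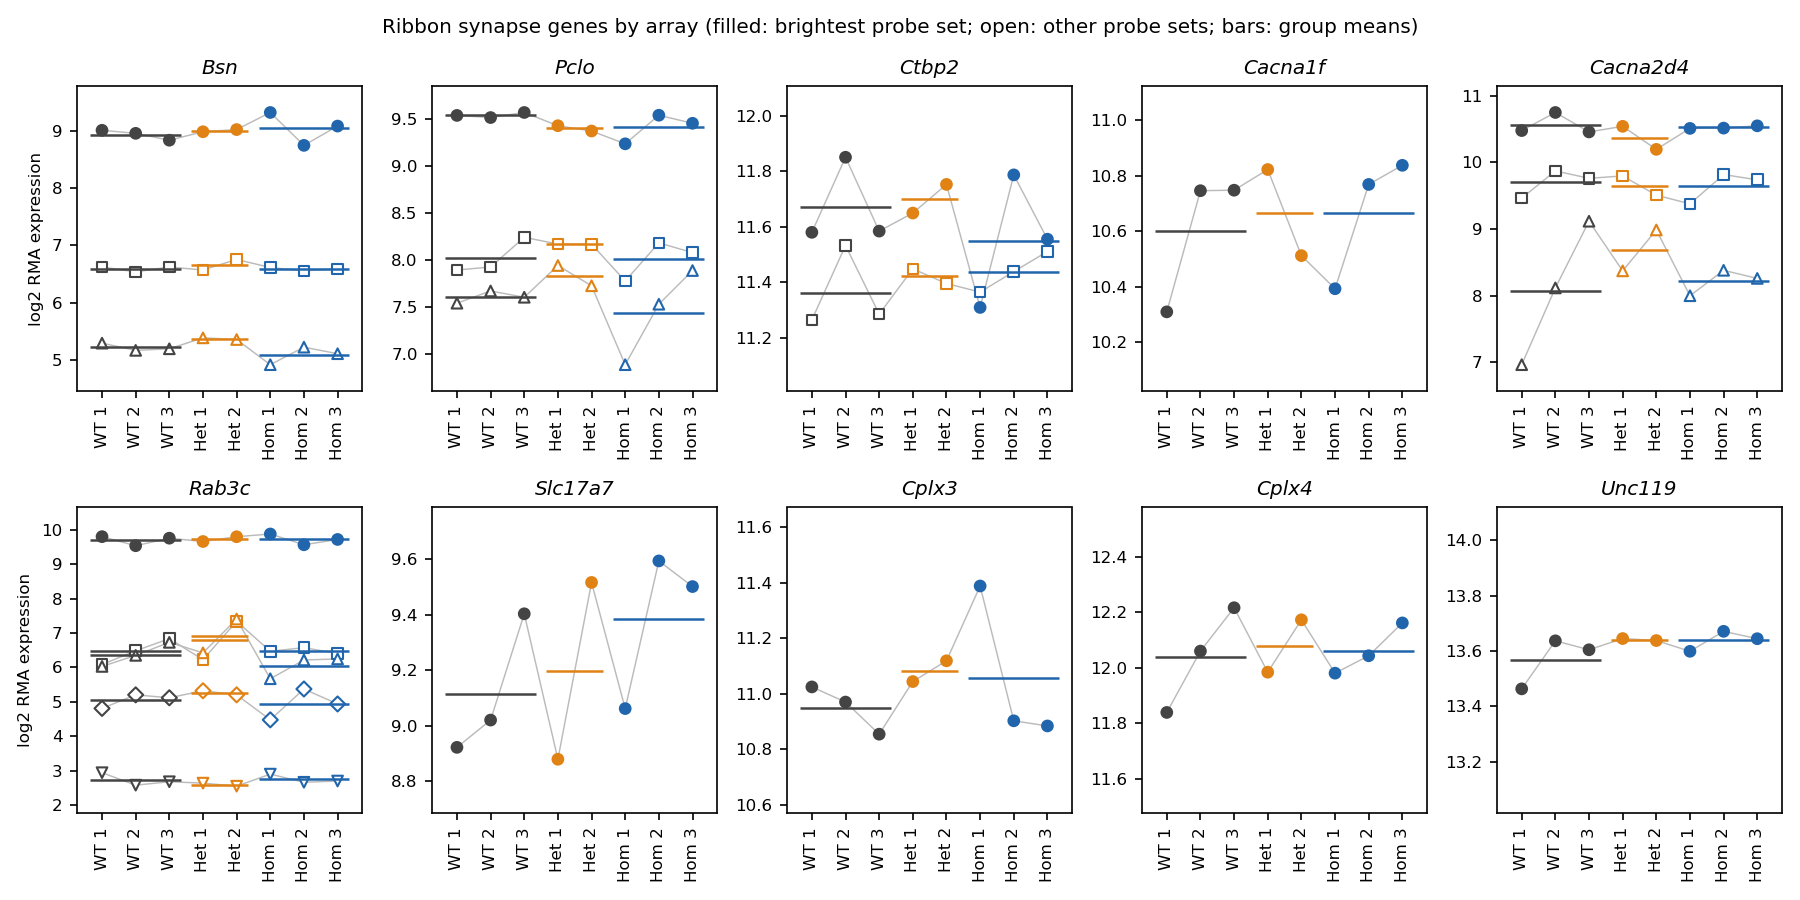
Log2 RMA expression (y axis) of the 21 probe sets of the 10 genes on each of the 8 arrays (x axis), with filled symbols for the brightest probe set of a gene, open symbols for its others and horizontal bars for group means; each panel has its own scale. The homozygous and wild-type arrays overlap for all 21 probe sets. The lowest array is wild type 1 or homozygous 1 for 14 of 21, against 31.9% of all probe sets.

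**Figure D2:**
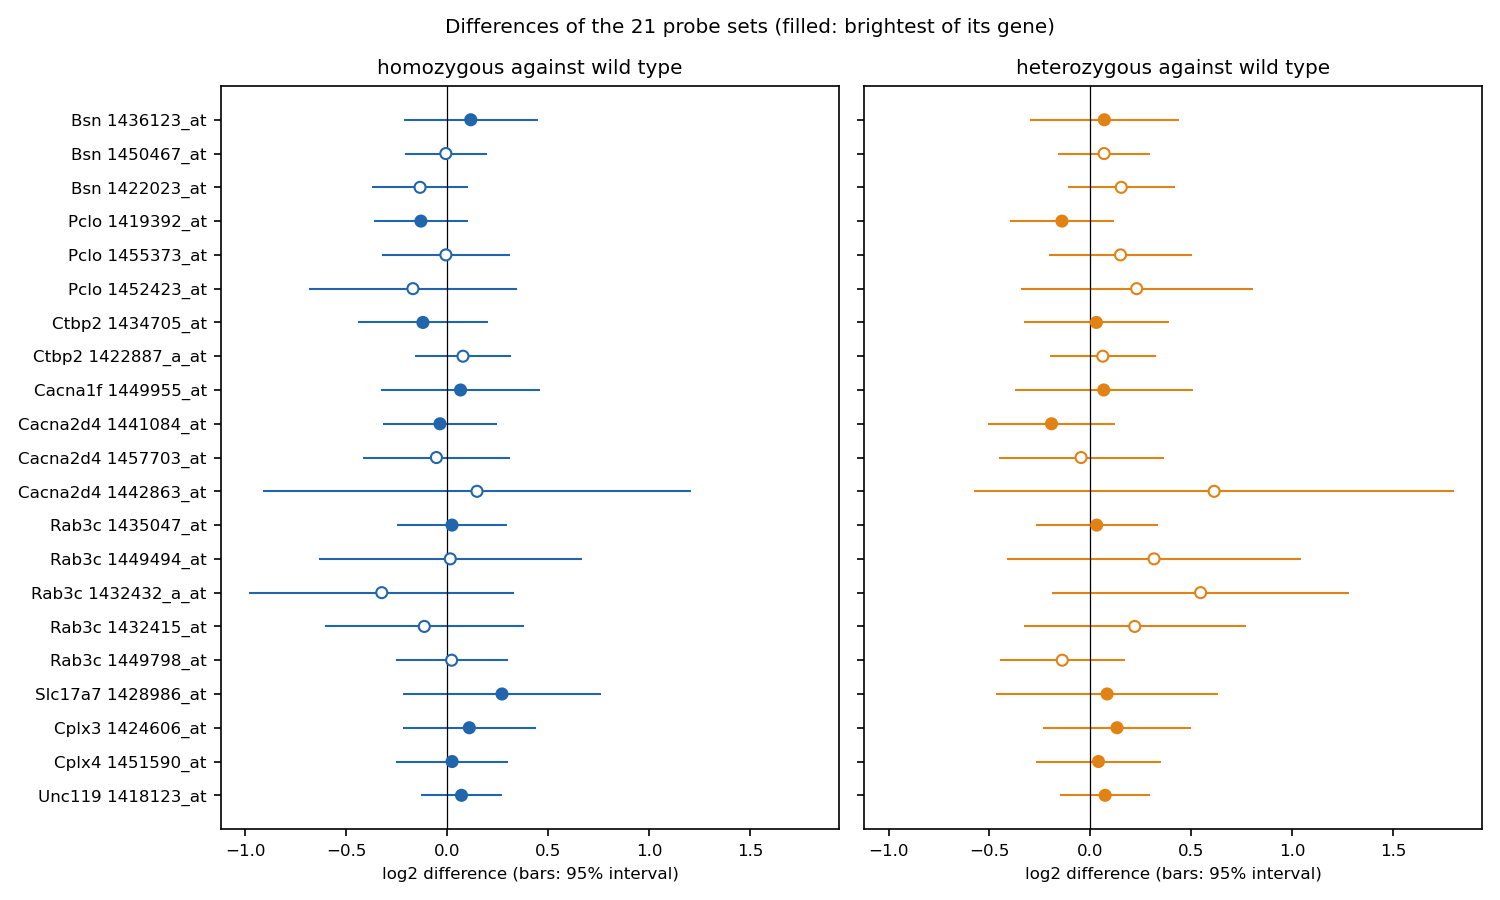
Log2 difference from wild type (points) with its 95% interval from limma (bars) for each of the 21 probe sets, homozygous on the left and heterozygous on the right. Every interval spans 0, and the widest are those of dimmer Cacna2d4 and Rab3c probe sets.

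Bassoon (Bsn) is a giant scaffold that anchors the ribbon at the release site. Its brightest probe set read 9.01, 8.96 and 8.84 on wild type 1, 2 and 3, 8.99 and 9.02 on heterozygous 1 and 2, and 9.32, 8.75 and 9.08 on homozygous 1, 2 and 3. The homozygous arrays thus held both the highest and the lowest value. The homozygous difference of 0.12 (SE 0.14, limma adjusted p 0.9999) depended on homozygous 1 and on homozygous 2. It was -0.019 without the first and 0.27 without the second, and 0.27 (SE 0.12) without the 2 arrays in doubt. The other Bsn probe sets differed by -0.0077 (SE 0.09) and -0.14 (SE 0.10), and the mean over the 3 probe sets by -0.0090, so the probe sets did not share a direction.

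Piccolo (Pclo), the partner scaffold of bassoon, occurs in photoreceptor ribbons mainly as a short form, piccolino. Its brightest probe set read 9.54, 9.52 and 9.57 for wild type, 9.43 and 9.38 for the heterozygous pair and 9.24, 9.55 and 9.46 on homozygous 1, 2 and 3. Wild-type values lay close together and both heterozygous arrays lay below them, while homozygous 2 did not. The homozygous difference was -0.13 (SE 0.10, limma adjusted p 0.9999) and the heterozygous one -0.14 (SE 0.11). Both comparisons use the same wild-type arrays. The homozygous difference was -0.044 without homozygous 1 and -0.20 (SE 0.11) without the 2 arrays in doubt. The dimmest Pclo probe set read 6.89 on homozygous 1 and 7.53 to 7.94 on the others, and it and the middle one were above wild type by 0.23 (SE 0.25) and 0.15 (SE 0.15) in the heterozygous group, opposite to the brightest.

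Ctbp2 encodes a transcriptional corepressor and, from an internal promoter, RIBEYE, the main structural protein of the ribbon. The annotation does not say which of these transcripts its probe sets read. The brighter one read 11.58, 11.85 and 11.59 for wild type, 11.65 and 11.75 for the heterozygous pair and 11.31, 11.79 and 11.56 for the homozygous arrays. The other read 11.26, 11.53 and 11.29, then 11.45 and 11.40, then 11.37, 11.44 and 11.51. Their homozygous differences had opposite signs, -0.12 (SE 0.14) and 0.08 (SE 0.10), and their correlation over the 8 arrays was 0.44. Without homozygous 1 the first of these was -0.00053, and without the 2 arrays in doubt it was -0.24 (SE 0.14, limma adjusted p 0.976).

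Crx, a homeodomain factor of photoreceptors, binds the motif TAATCC (reverse complement GGATTA), and Nrl, the rod leucine zipper factor, binds sites with the core TGCTGA (reverse complement TCAGCA). Neither motif holds the other. Both were searched on both strands in the 250 bases before each RefSeq transcription start (GRCm38.p6). Windows were found for 8 of the 10 genes, 11 windows in all. TAATCC was in 2 of the 11, against 6.25% of all 32851 windows, and TGCTGA was in 2 of the 11, in Cplx3 and Unc119, against 16.1%. A match describes letters and was not tested as a binding site. The 2 windows with the Crx letters, at 1 start each of Ctbp2 and Unc119, are shown as the member windows that hold this motif. Both genes have several annotated starts, and only 1 of each has the match, which is in capitals and lies on the reverse strand. They lie at chr7:133015248-133015497 on the minus strand and chr11:78345334-78345583 on the plus strand, with the first base of the match 121 and 118 bases before the start.
Ctbp2: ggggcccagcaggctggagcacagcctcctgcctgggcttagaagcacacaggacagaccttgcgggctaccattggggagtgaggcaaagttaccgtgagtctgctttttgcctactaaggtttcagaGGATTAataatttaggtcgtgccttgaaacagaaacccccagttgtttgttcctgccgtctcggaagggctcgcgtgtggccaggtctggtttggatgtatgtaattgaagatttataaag
Unc119: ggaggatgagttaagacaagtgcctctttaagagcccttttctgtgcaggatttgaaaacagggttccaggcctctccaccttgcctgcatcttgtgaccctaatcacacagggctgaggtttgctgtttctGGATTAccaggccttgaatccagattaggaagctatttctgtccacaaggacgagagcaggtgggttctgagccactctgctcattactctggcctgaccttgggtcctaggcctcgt

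Cacna1f encodes the pore of the L-type channel that opens beside the ribbon. It read 10.31, 10.75 and 10.75 on wild type 1, 2 and 3, 10.82 and 10.51 on heterozygous 1 and 2, and 10.39, 10.77 and 10.84 on homozygous 1, 2 and 3. Wild type 1 and homozygous 1, the arrays of lowest actin difference, were the lowest. The homozygous difference was 0.07 (SE 0.17, 95% interval -0.33 to 0.46, limma adjusted p 0.9999). It became -0.081 without wild type 1, and it was 0.014 without the 2 arrays in doubt.

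Cacna2d4 encodes an auxiliary subunit of this channel that is exposed to the synaptic cleft. Its brightest probe set read 10.48, 10.75 and 10.46 for wild type, 10.54 and 10.19 for the heterozygous pair and 10.51, 10.51 and 10.55 for the homozygous arrays. The homozygous arrays lay within the wild-type range, and the difference was -0.04 (SE 0.12). The heterozygous difference of -0.19 (SE 0.14) turned on heterozygous 2, the lowest array, and was -0.020 without it. Its middle probe set read 9.38 to 9.87 over the 8 arrays. Its dimmest probe set was the most variable of all 21, with 6.97, 8.12 and 9.12 in wild type alone, an SD between replicates of 1.08 (n = 3). Its heterozygous difference of 0.61 (SE 0.52) was within that spread.

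Of the vesicle genes, Slc17a7 encodes VGLUT1, the transporter that fills photoreceptor vesicles with glutamate. It read 8.92, 9.02 and 9.40 for wild type, 8.88 and 9.52 for the heterozygous pair and 9.06, 9.59 and 9.50 on homozygous 1, 2 and 3. The homozygous mean of 9.39 ± 0.28 (SD, n = 3) was above the wild-type mean of 9.12 ± 0.25 (SD, n = 3), and the groups overlapped. The difference of 0.27 (SE 0.21, limma adjusted p 0.9999) was the highest of the 10 genes, a fold of 1.21 with a 95% interval of 0.858 to 1.70. It was 0.17 (SE 0.20) without the 2 arrays in doubt, and 0.43 without homozygous 1. The heterozygous difference of 0.08 (SE 0.24) turned to -0.24 without heterozygous 2 and to 0.40 without heterozygous 1.

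Rab3c encodes a small GTPase of synaptic vesicles and had 5 probe sets. The brightest read 9.80, 9.54 and 9.76 for wild type, 9.66 and 9.80 for the heterozygous pair and 9.88, 9.57 and 9.72 for the homozygous arrays, a difference of 0.02 (SE 0.12), which was 0.10 (SE 0.13) without the 2 arrays in doubt. The other 4 probe sets had correlations with it over the 8 arrays from -0.76 to 0.59. A pair of them was high on heterozygous 2 only, where they read 7.41 and 7.34 against 5.67 to 6.73 and 6.08 to 6.84 on the other arrays, and their correlation with each other was 0.81. The faintest read 2.54 to 2.94, with a lower mean than this in 0.00888% of all probe sets.

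The complexins Cplx3 and Cplx4 bind the vesicle fusion complex and in the retina belong to ribbon synapses. In mice Cplx4 is found in rods, and Cplx3 in cones, bipolar cells and some amacrine cells. Cplx3 read 11.02, 10.97 and 10.85 for wild type, 11.04 and 11.12 for the heterozygous pair and 11.39, 10.90 and 10.88 on homozygous 1, 2 and 3. Homozygous 1 stood above the 7 other arrays, and the homozygous difference of 0.11 (SE 0.14) was -0.056 without it. Without the 2 arrays in doubt it was 0.19 (SE 0.17). Cplx4 read 11.84, 12.06 and 12.22 for wild type, 11.98 and 12.17 for the heterozygous pair and 11.98, 12.04 and 12.16 for the homozygous arrays. The homozygous arrays lay within the wild-type range, with a difference of 0.02 (SE 0.12, limma adjusted p 0.9999).

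Unc119 encodes a chaperone that binds lipid-modified proteins, transducin among them, and is abundant in photoreceptor inner segments and terminals. It read 13.46, 13.64 and 13.60 for wild type, 13.64 and 13.64 for the heterozygous pair and 13.60, 13.67 and 13.64 for the homozygous arrays. It was the least variable of the 21 probe sets, with a residual SD of 0.063 against a median of 0.183 over the member probe sets and of 0.184 over all probe sets above the median level. The homozygous difference was 0.07 (SE 0.09), a fold of 1.05 with a 95% interval of 0.914 to 1.21. It was 0.017 without wild type 1, the lowest array. Of all probe sets 99.9% had a lower mean. Low spread was not particular to Unc119 at this level. For the same comparison the photoreceptor markers Rcvrn, Nrl, Pde6b and Prph2 had SE of 0.08, 0.09, 0.10 and 0.16.

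Between the arrays labelled heterozygous and wild type the median difference of the 21 probe sets was 0.07 against 0.0018 over all 45037. Limma called 0 of 21 and 0 of 45037 (0%), and at an unadjusted p under 0.05 there were 0 of 21 against 516 of 45037 (1.15%). Both heterozygous arrays lay above all wild-type arrays for 4 of 21 probe sets, of Bsn, Pclo, Cplx3 and Unc119, where 7.03% of all did, and below them for the brightest Pclo probe set alone, where 7.20% did. The difference was above 0 for 17 of 21, against 50.6% of all probe sets, and 0.5 or more in size for 2 of 21, against 0.575%, which were the dimmest Cacna2d4 probe set and a Rab3c probe set at 0.55 (SE 0.32). With 2 arrays against 3 such a separation is common, though 4 of 21 is a larger share than 7.03%. The Bsn and Pclo probe sets in the first count were not the brightest. Unc119 was close to a tie, with 13.6376 on heterozygous 2 against 13.6367 on wild type 2.

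Between the arrays labelled homozygous and heterozygous 0 of 21 were called, with 0 of 45037 in all (0%). At an unadjusted p under 0.05 there were 2 of 21 against 405 of 45037 (0.899%). These were the dimmest Bsn probe set, with group means of 5.08 and 5.37 (difference -0.29, SE 0.11, unadjusted limma p 0.0358), and a Rab3c probe set with means of 6.04 and 6.91 (difference -0.87, SE 0.32, unadjusted limma p 0.0254). The Rab3c value turned on heterozygous 2, and it alone was 0.5 or more in size, against 1.41% of all probe sets. Groups did not overlap for 3 of 21, these 2 lower (5.68% of all were) and the faintest Rab3c probe set higher (6.75%). The difference was above 0 for 6 of 21, against 53.5%. The median difference of the 21 probe sets was -0.017, and without the 2 arrays in doubt it was -0.023. Each group in these 3 comparisons is shared with another, so the comparisons are not independent.

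None of the genes in 4 further lists passed the test in any of the 3 comparisons: 20 of 20 active zone, ribbon and channel genes were measured, 35 of 37 vesicle genes, 22 of 26 trans-synaptic and bipolar dendrite genes and 14 of 15 paralogs of the members. Between the arrays labelled homozygous and wild type their medians were 0.04, 0.03, 0.02 and 0.07. None of the 91 entries had an unadjusted p under 0.05. In each list the 3 genes of smallest unadjusted p are given. In the active zone list the liprin Ppfia2, a scaffold, was at 0.25 (SE 0.12), Rimbp2, which links RIM proteins to calcium channels, at 0.21 (SE 0.13), and Arl3, the GTPase that releases cargo from Unc119, at 0.17 (SE 0.13). Without homozygous 2 the value of Rimbp2 was 0.34. The vesicle protein Sv2c was at -0.32 (SE 0.16), with levels of only 3.97 to 4.74, and the proton pump subunit Atp6v0a1 was at 0.22 (SE 0.13).

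Across the synapse dystrophin (Dmd) was at -0.23 (SE 0.12), the G-protein regulator Rgs7 at 0.14 (SE 0.09) and Lrit1, a leucine-rich repeat protein of photoreceptor terminals, at -0.16 (SE 0.12). Without homozygous 2 the value of Lrit1 was -0.035. Among the paralogs, Rab3a, the major Rab of conventional synapses, was at 0.20 (SE 0.10) with 10.95, 11.12 and 11.09 for wild type, 11.40 and 11.28 for the heterozygous pair and 11.39, 11.28 and 11.10 for the homozygous arrays. The calcium channel subunits Cacna2d3 and Cacna1c were at 0.18 (SE 0.09) and 0.23 (SE 0.12). The complexins of conventional synapses, Cplx1 and Cplx2, were at 0.02 (SE 0.16) and 0.11 (SE 0.17), Slc17a6, the vesicular glutamate transporter of ganglion cells, at -0.011 (SE 0.24), Ctbp1 at 0.06 (SE 0.14) and Unc119b at 0.0067 (SE 0.11).

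Single arrays stood apart across many members. Wild type 1 or homozygous 1 was the lowest of the 8 arrays for 14 of 21 member probe sets, against 34.5% of all probe sets above the median level. Wild type 1 was lowest for Unc119, Cplx4, Cacna1f and 1 probe set each of Ctbp2, Cacna2d4 and Rab3c, and homozygous 1 for all 3 Pclo probe sets, the brighter Ctbp2 probe set and 4 others. The same arrays had the lowest actin differences, and they had the highest means of the amacrine and horizontal (8.59 and 8.65), ganglion cell (9.64 and 9.84) and glia, pigment epithelium and lens markers (8.89 and 8.91), where the other 6 arrays reached 8.56, 9.42 and 8.48. Genes of the last list differed. The lens gene Crygd read 10.16 on wild type 1 and 8.46 on homozygous 1 against 4.12 to 6.99 on the others, while the glial gene Glul was lowest there (13.12 and 12.98). The part of RNA quality or of other tissue in what set these 2 arrays apart was not tested. Leaving both out narrowed the range of Unc119 over arrays from 0.21 to 0.07 and that of Cplx3 from 0.53 to 0.26, while that of Slc17a7 stayed at 0.71.

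The 10 genes did not vary as a unit. Of their 45 pairs, 21 had a correlation above 0 over the 8 arrays, the median was -0.08, and the pairs ran from -0.90 for Pclo with Cplx3 to 0.82 for Bsn with Cplx3. Cplx4, Slc17a7, Unc119 and Cacna1f varied over the arrays with the mean of 14 photoreceptor markers (r = 0.90, 0.70, 0.67 and 0.66). Of the 11027 genes above the median level 0.109% had a higher correlation with these markers than Cplx4. Ctbp2 had 0.48, and Pclo and Cacna2d4 had 0.26 and 0.01. Bsn, Cplx3 and Rab3c were negative, with -0.35, -0.55 and -0.41, where 54.6%, 74.9% and 59.9% of these genes had a higher value. They followed the mean of 16 amacrine and horizontal cell markers instead (r = 0.80, 0.85 and 0.86). Correlations of that size were common, since 16.7%, 10.3% and 9.18% of genes had a higher one. Cplx3 also followed the mean of 11 bipolar markers (r = 0.89), where 0.499% of genes had a higher one. Pclo went the other way with bipolar markers (r = -0.88), where 99.9% of genes had a higher value. With amacrine and horizontal markers Cacna1f and Pclo had -0.87 and -0.72, where 98.1% and 93.8% of genes had a higher value. These are 8 arrays that share 1 normalization. The means of photoreceptor and of amacrine and horizontal markers themselves moved with the actin difference (r = 0.66 and -0.69), and that of bipolar markers did not (r = -0.08). Without wild type 1 and homozygous 1 these values were -0.37, 0.14 and 0.66.

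**Figure D3:**
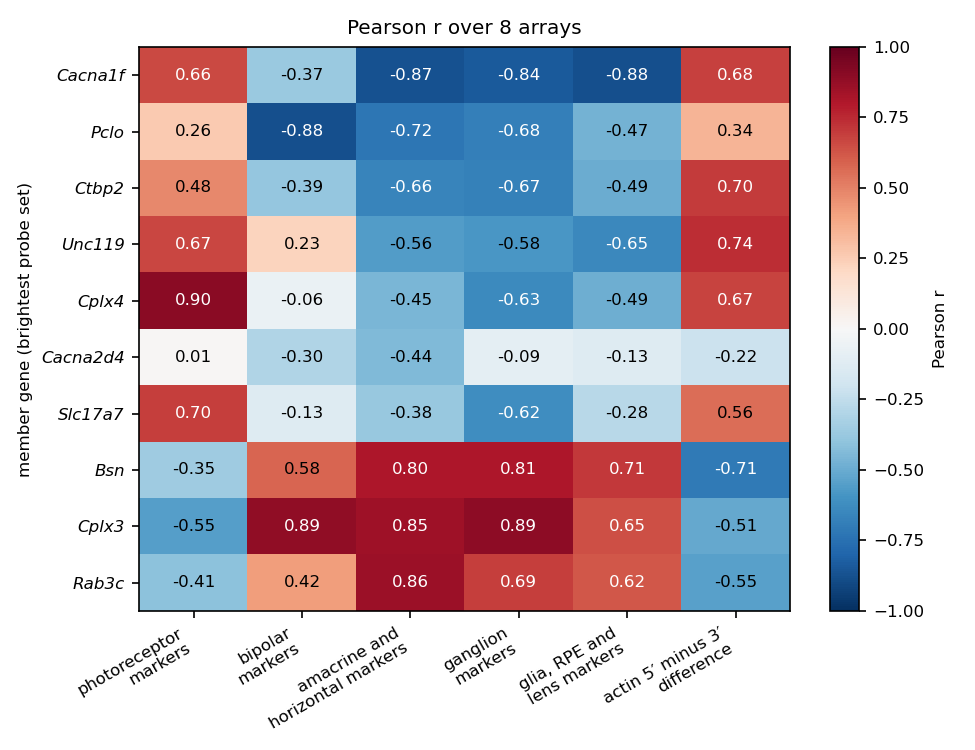
Pearson correlation over the 8 arrays (colour and number) of the brightest probe set of each gene (rows) with the mean of each list of cell markers and with the actin difference (columns). Bsn, Cplx3 and Rab3c are positive with amacrine, horizontal and ganglion cell markers and negative with photoreceptor markers, and Cplx4 has the highest value with photoreceptor markers, 0.90.

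On the 6 arrays left without wild type 1 and homozygous 1, the correlation of Cplx4 with photoreceptor markers was 0.76 and that of Slc17a7 was 0.54, while those of Unc119 and Cacna1f turned to -0.31 and -0.24 and that of Ctbp2 to -0.054. Cplx3 kept 0.91 with bipolar and 0.80 with amacrine and horizontal markers, and Rab3c and Bsn had 0.73 and 0.66 with the latter. Pclo had -0.63 with bipolar and -0.91 with amacrine and horizontal markers, and Cacna1f had -0.67 with the latter. With photoreceptor markers Bsn and Rab3c turned to 0.24 and 0.23, while Cplx3 had -0.35. For Unc119, Cacna1f, Ctbp2, Bsn and Rab3c the sign of the relation with photoreceptor markers thus rested on those 2 arrays. The group ranges of the marker means overlapped, with 12.20 to 12.39 in wild type, 12.27 to 12.38 in the heterozygous and 12.24 to 12.42 in the homozygous group for photoreceptor markers, and 8.40 to 8.59, 8.48 to 8.57 and 8.38 to 8.65 for amacrine and horizontal markers. For bipolar markers the ranges were 9.51 to 9.55, 9.59 to 9.62 and 9.51 to 9.69, so both heterozygous arrays lay above the wild-type arrays there, as they did for Cplx3.

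Among the genes above the median level, the one most like each member over the 8 arrays was Champ1 for Bsn (r = 0.995), Prdm1 for Pclo (0.966), A530058N18Rik for Ctbp2 (0.945), Tbc1d8 for Cacna1f (0.989), Cdk6 for Cacna2d4 (0.947), Tfap2b for Rab3c (0.991), Slco4a1 for Slc17a7 (0.952), Asb8 for Cplx3 (0.993), Ctnnb1 for Cplx4 (0.975) and Rabggta for Unc119 (0.982). With 8 arrays and 11026 candidates such values are usual, since the median over all these genes of their highest correlation was 0.979. Tfap2b, a transcription factor of amacrine cells, is itself 1 of the 16 amacrine and horizontal markers.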

How the data were processed

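Total RNA of mouse retina was hybridised to 1 Affymetrix 3′ array per sample. The deposited table holds log2 expression values by the authors. Per the submitters' processing notes the tool was RMA, which corrects background, makes the distributions of arrays alike by quantile normalization and summarises probes into probe sets. The RMA version is not given in the sources used here. Changes are therefore relative to the bulk of transcripts. The series names 9 samples in its design, of which 8 were analysed.

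Of 45101 probe sets 64 controls were left out and 45037 tested. In the platform annotation 34945 had 1 symbol, 932 several and 9160 none. Group means of the 8 arrays were fitted with limma 3.58.1 in R 4.3.3 (5 residual degrees of freedom, two-sided moderated test, eBayes), and p-values received the Benjamini-Hochberg adjustment over all probe sets, with a threshold of 0.05. SE and 95% intervals are from this fit. The number of arrays limits the precision.

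Members, lists and alternatives were chosen with earlier results of these data known. In 9 further lists 158 of 171 entries were measured. Text names all members, Nxnl1, the 3 genes of smallest unadjusted p per synaptic list, 6 measured paralogs and the gene most like each member. Promoter sequences are from RefSeq. Alternatives were another normalization, a level filter, a variance trend, 2 groups only, a replicate block, arrays left out and the actin difference as covariate. The leave-out of heterozygous 2 and homozygous 2 was chosen by their Nxnl1 level.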

Additional observations from a re-analysis of the deposited data

How the results depend on the processing

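No alternative called a member probe set, and the smallest limma adjusted p of a member probe set was 0.876, for homozygous against heterozygous without homozygous 2. Over all probe sets the counts stayed at 0 except without wild type 3 (counts 0 to 1 with 1 array left out). There 1 probe set with no single gene symbol passed for homozygous and for heterozygous against wild type. Its differences were large, 6.29 (SE 0.37) and 6.44 (SE 0.40), and their cause was not tested. The median of the members with 1 array left out ran from -0.078 to 0.040 for homozygous and from 0.054 to 0.12 for heterozygous against wild type, and from -0.11 to -0.017 for homozygous against heterozygous, where equal array medians turned it to 0.028. For homozygous against wild type it was -0.0071 without wild type 1 and homozygous 1. The level filter kept 18 of 21 member probe sets. Of 37 differences of single genes from wild type, 18 kept their sign under every alternative run. Among the members these were Pclo, Ctbp2, Slc17a7 and Unc119 for homozygous and Bsn, Cplx3 and Unc119 for heterozygous against wild type. The rest were Nxnl1 and genes picked for a small p in these same data, a choice that favours a steady sign.

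For homozygous against wild type the sign turned with the mean of all probe sets for Bsn (-0.0090), Cacna2d4 (0.019), Rab3c (-0.076) and Atp6v0a1 (-0.030), without wild type 1 and homozygous 1 for Rab3c (-0.0045), Cplx3 (-0.019), Cplx4 (-0.036) and Cplx1 (-0.071), without heterozygous 2 and homozygous 2 for Slc17a6 (0.17), and with repeated quantile normalization for Unc119b (-0.0063). With 1 array left out the ranges that crossed 0 were -0.019 to 0.27 for Bsn, -0.081 to 0.20 for Cacna1f, -0.089 to 0.057 for Cacna2d4, -0.058 to 0.10 for Rab3c, -0.056 to 0.20 for Cplx3, -0.076 to 0.11 for Cplx4, -0.29 to 0.17 for Slc17a6, -0.15 to 0.14 for Cplx1, -0.045 to 0.22 for Cplx2, -0.056 to 0.088 for Unc119b and -0.055 to 0.16 for Ctbp1.

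For heterozygous against wild type it turned with the mean of all probe sets for Pclo (0.079) and Cacna2d4 (0.12), with equal array medians for Ctbp2 (-0.0034) and Rab3c (-0.0018), without heterozygous 2 and homozygous 2 for Ctbp2 (-0.022), Rab3c (-0.038), Slc17a7 (-0.24) and Cplx4 (-0.054), with the actin covariate for Ctbp2 (-0.084), Cacna1f (-0.087), Slc17a7 (-0.12) and Cplx4 (-0.049), and without wild type 1 and homozygous 1 for Ctbp2 (-0.016), Cacna1f (-0.080), Slc17a7 (-0.014) and Cplx4 (-0.060). With 1 array left out the ranges that crossed 0 were -0.022 to 0.12 for Ctbp2, -0.089 to 0.22 for Cacna1f, -0.049 to 0.10 for Rab3c, -0.24 to 0.40 for Slc17a7 and -0.060 to 0.13 for Cplx4. The cause was not tested.

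The replicate numbers were also fitted as a block, although same-numbered arrays did not deviate together in every pair (correlations from -0.25 to 0.62). With the replicate block 0 of 21 member probe sets and 0 of 45037 in all were called in each comparison. At an unadjusted p under 0.05 there were then 336, 829 and 1028 probe sets for homozygous against wild type, heterozygous against wild type and homozygous against heterozygous, against 411, 516 and 405 without it.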
